A study of Mus musculus with 11 samples.

Results

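The 7 genes described here, Ms4a4a, Ms4a4c, Ms4a6b, Ms4a6c, Ms4a6d, Ms4a7 and Ms4a8a, are a chosen set of myeloid members of the membrane-spanning 4-domains subfamily A (MS4A). They were taken by symbol from a table of 21860 mouse genes measured by bulk RNA sequencing. Of the 7, 6 passed the filter on low values, which kept 13095 genes, and Ms4a8a did not.

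The cells came from mouse bone marrow monocytes of the C57BL/6 strain, at an age that the sources do not give. They were cultured with GM-CSF at 20 ng/ml in every group and harvested on day 6, when up to 100000 EpCAM+ cells with low CD11b were sorted per sample as monocyte-derived Langerhans cell (mLC)-like cells. In 10 of the 11 samples the medium also held TGFβ (5 ng/ml) with IL-34 (8 µg/ml), namely TGFβ/IL-34 alone (n = 2), with FICZ (n = 2), with Jag1 (n = 3) and with both Jag1 and FICZ (n = 3). The remaining sample had Jag1 but neither TGFβ nor IL-34 (n = 1). Jag1 is a Notch ligand, here displayed by the OP9-Jag1 stromal line, and FICZ is a ligand of the aryl hydrocarbon receptor (Ahr) that the study used as an agonist, although the deposited design text calls it an antagonist. The labels call every sample a co-culture with OP9 cells, also those without Jag1. The summed level of 8 stromal markers was 12.8 to 38.0 normalised counts in the 4 samples without Jag1 and 391 to 4630 in the 7 samples with it. The Notch ligand and the stromal cells that displayed it therefore cannot be told apart. Replicates of a group carry different experiment codes (AA45, AA47 or AA48), but the sources do not say whether they came from separate mice, so the p-values measure the spread between these samples only. Fewer cells of a type and less RNA per cell cannot be told apart in bulk samples.

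MS4A proteins cross the plasma membrane several times and sit beside other receptors, whose signalling or trafficking they can alter. The best known are CD20 on B cells, encoded by Ms4a1, and the β chain of the high-affinity IgE receptor on mast cells and basophils, encoded by Ms4a2. In macrophages, MS4A4A is known to associate with the β-glucan receptor Dectin-1, encoded by Clec7a. The rodent family has been enlarged by gene duplication, so that mice carry several close copies of the Ms4a4 and Ms4a6 genes.

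On GRCm39 the 7 members lay on chromosome 19 within 537 kb, with 4 on the plus strand and 3 on the minus strand. From one end of the cluster to the other they were Ms4a8a (ENSMUSG00000024730, chr19:11044835-11058466, minus strand), Ms4a7 (ENSMUSG00000024672, chr19:11298403-11313510, minus), Ms4a4a (ENSMUSG00000101389, chr19:11352823-11370154, plus) and Ms4a4c (ENSMUSG00000024675, chr19:11382131-11404610, plus). These were followed by Ms4a6c (ENSMUSG00000079419, chr19:11446718-11462204, plus), Ms4a6b (ENSMUSG00000024677, chr19:11493876-11508620, plus) and Ms4a6d (ENSMUSG00000024679, chr19:11563968-11582213, minus). The table held 14 further family genes in the same cluster, which spanned 679 kb. Of these Ms4a5, Ms4a10, Ms4a13, Ms4a15, Ms4a19 and Ms4a20 were listed at 0 in all 11 samples, Ms4a4d and Ms4a18 were above 0 in 1 sample each, and Ms4a14 was at 0 to 8.98 normalised counts and was not tested. Neighbours in the cluster were measured at very different levels, as the map of the cluster shows.

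**Figure D1:**
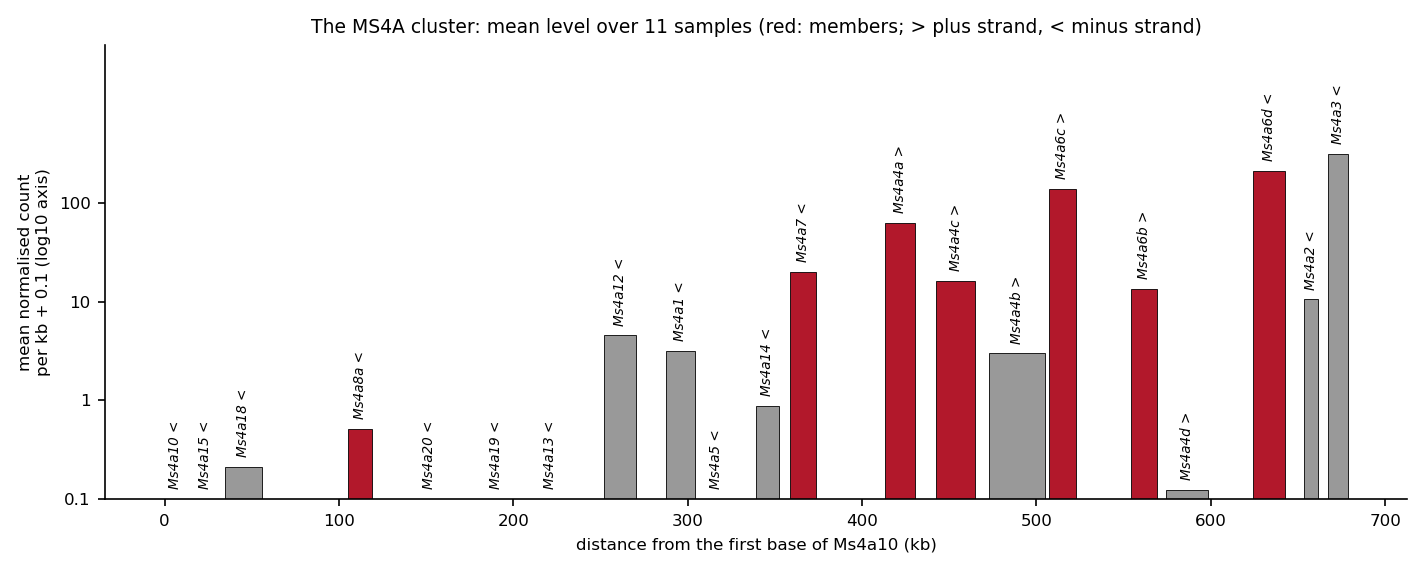
Mean level over 11 samples of the 21 MS4A family genes in the table, as normalised counts per kb of canonical transcript plus 0.1 on a log axis, against distance in kb from the first base of Ms4a10. Red bars are the 7 members, and > or < after the gene name marks the plus or minus strand. Ms4a6d and Ms4a6c stood highest among the members and Ms4a8a lowest.

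The members were modestly expressed. The authors' unit is the normalised count, a read estimate divided by a factor for library size, in which 1 read was worth 0.894 to 1.15. The mean over the 11 samples was 302 for Ms4a6d and 258 for Ms4a6c, at percentiles 38.2 and 35.3 of the genes tested. The other 4 tested members had means of 26.6 to 52.9, at percentiles 11.7 to 17.1. Ms4a8a, a member known from alternatively activated macrophages, was at 2.86 in replicate 2 of TGFβ/IL-34, at 2.06 in the Jag1-only sample and listed at 0 in the other 9. Both values lay at or below the level of 3 reads, 2.68 to 3.45 normalised counts, so expression of Ms4a8a was not detectable at this depth.

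Members can be ranked against each other only per length of transcript. Per kb of canonical transcript, Ms4a6d (414) and Ms4a6c (241) led in TGFβ/IL-34 alone, followed by Ms4a4a at 83.9, Ms4a7 at 23.4, Ms4a4c at 20.2 and Ms4a6b at 9.45, of which Ms4a7 and Ms4a4c lay within the spread of their replicates. With Jag1 the order was Ms4a6d at 148, then Ms4a4a at 21.3, Ms4a7 at 18.9 and Ms4a6c at 18.1, then Ms4a6b at 10.97 and Ms4a4c at 2.27. Ms4a6c thus held the second place in TGFβ/IL-34 alone and the fourth with Jag1, where Ms4a4a, Ms4a7 and Ms4a6c lay within the spread of their replicates. With Jag1 and FICZ the order was again led by Ms4a6c at 135 and Ms4a6d at 126, which did not differ beyond their spread. Ms4a4a at 51.5, Ms4a4c at 35.6, Ms4a6b at 17.9 and Ms4a7 at 16.8 came next. With FICZ alone Ms4a6c was at 269 and Ms4a6d at 257, and the replicates of that group differed widely, with both genes above the rest in each of them. In the Jag1-only sample Ms4a4a led at 194, ahead of Ms4a6d at 180.5, Ms4a6c at 55.6, Ms4a6b at 25.8, Ms4a4c at 16.9 and Ms4a7 at 9.83.

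**Figure D2:**
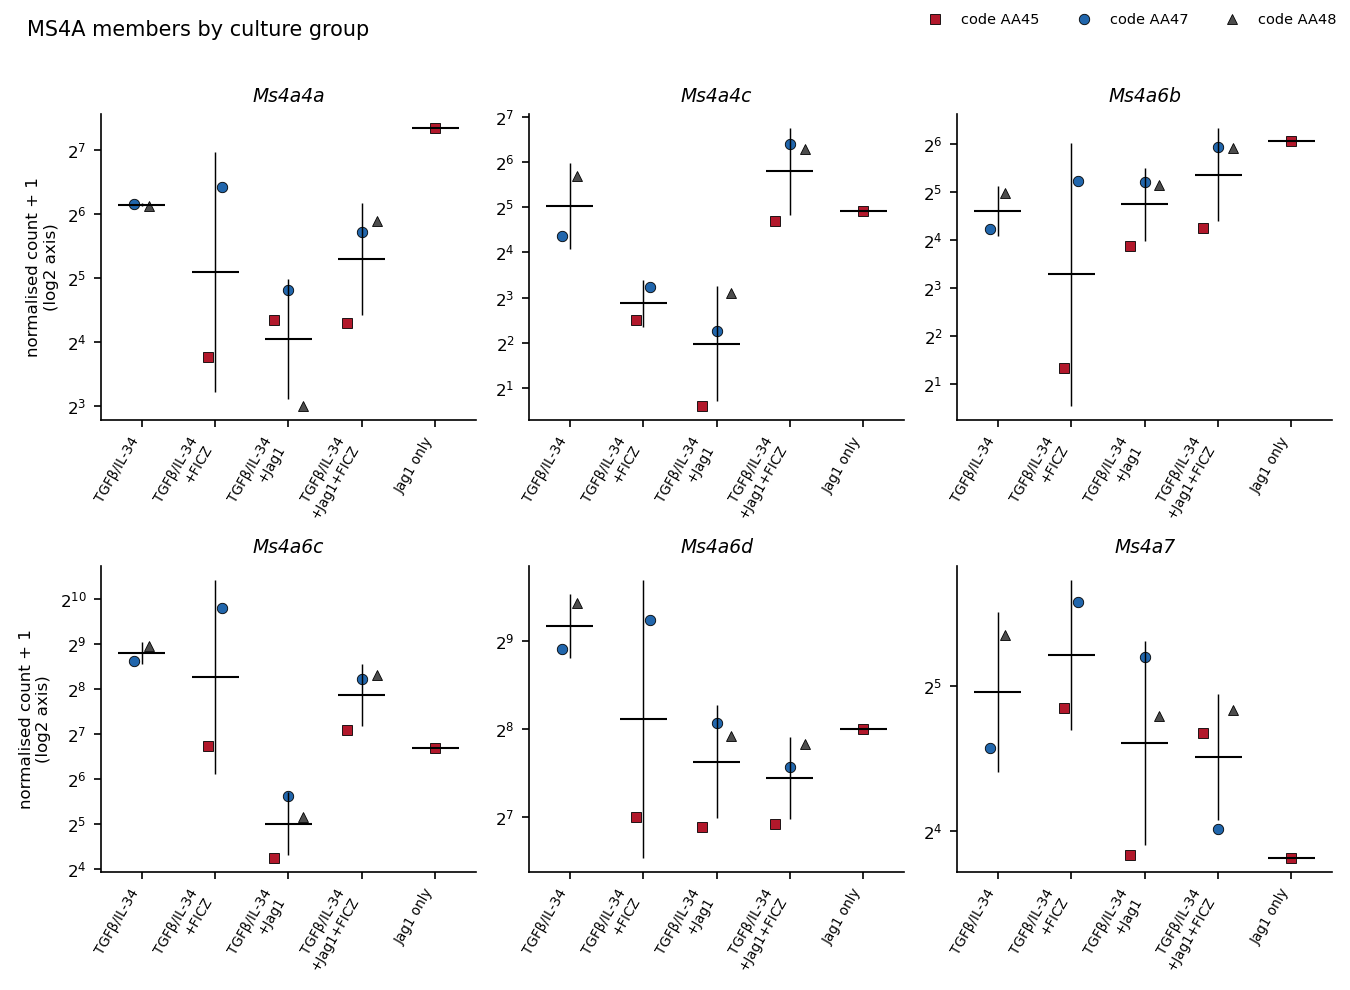
Normalised counts plus 1 (log2 axis) of the 6 tested members in each culture group, with a point per sample coloured and shaped by experiment code. A horizontal bar marks the mean of the log2 values and a vertical line their SD. Ms4a6c and Ms4a4c were low in the 3 Jag1 samples without FICZ and higher in the 3 with it, while Ms4a7 kept between 13.1 and 46.7 throughout.

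The first question was what culture with the OP9-Jag1 line, ligand and stromal cells together, adds to TGFβ/IL-34. With Jag1 in the absence of FICZ, Ms4a6c was lower. Ms4a6c was at 392 and 500.1 normalised counts in TGFβ/IL-34 alone and at 18.0, 48.2 and 34.4 with Jag1. The groups did not overlap, and the mean was 13.3-fold lower (446 ± 76.2, SD, n = 2, against 33.5 ± 15.1, n = 3). The fitted log2 difference on the log2(value + 1) scale was -3.79 (SE 0.77, 95% interval -5.51 to -2.07, adjusted p = 0.0167, limma). Ms4a6c was the 1 of 6 members called at an adjusted p below 0.05, in a comparison that called 6.6% of all genes tested. Within experiment code AA47 the 2 values were 48.2 against 392, and within AA48 34.4 against 500.1. The call was lost without replicate 1 or replicate 2 of TGFβ/IL-34 (adjusted p = 0.101 and 0.163) and without replicate 1 of Jag1 (0.0618), with log2 differences of -3.96, -3.61 and -3.41.

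Its neighbour Ms4a4c was also lower with Jag1 but did not pass the test. It was at 19.4 and 50.5 normalised counts in TGFβ/IL-34 alone and at 0.513, 3.76 and 7.54 with Jag1, again without overlap. The log2 difference was -3.04 (SE 0.84, adjusted p = 0.0611), and it passed in 7 of 16 alternative fits. Ms4a4a, the partner of Dectin-1, was at 70.9 and 69.3 in TGFβ/IL-34 alone and at 19.2, 27.1 and 6.99 with Jag1. That gave a mean 3.95-fold lower and a log2 difference of -2.10 (SE 0.82, adjusted p = 0.188). Ms4a6d was at 482 and 691 against 118, 268 and 242, with a mean 2.80-fold lower and a log2 difference of -1.55 (SE 0.60, adjusted p = 0.184). None of these 3 differences passed the threshold. The samples of both groups lay apart, but how many of all genes tested did so was not counted, so nothing is read from it. Ms4a6d passed in 5 of 16 alternative fits and Ms4a4a in 1.

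Ms4a6b and Ms4a7 showed no such difference. Ms4a6b was at 17.8 and 30.2 in TGFβ/IL-34 alone and at 13.6, 35.7 and 34.4 with Jag1 (log2 difference 0.14, 95% interval -2.12 to 2.40). Ms4a7, a gene of tissue macrophages, was at 22.8 and 39.7 against 13.3, 35.8 and 26.6 (-0.35, -1.58 to 0.88). The groups overlapped for both, and the intervals leave room for changes of more than 1 log2 unit. The median log2 difference was -1.82 over the 6 members and -0.0041 over all genes tested. The makeup of the family differed between these groups too. Ms4a6c made up 36.1% to 39.02% of the summed normalised counts of the 7 members in TGFβ/IL-34 alone and 9.77% to 11.5% with Jag1.

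When FICZ was added in the presence of Jag1, Ms4a4c and Ms4a6c rose. Here 2 of 6 members were called, both higher, in a comparison that called 17.7% of all genes tested. Ms4a4c was at 0.513, 3.76 and 7.54 with Jag1 and at 24.8, 83.2 and 77.1 with Jag1 and FICZ. The mean went from 3.94 ± 3.51 (SD, n = 3) to 61.7 ± 32.1 (n = 3), 15.7-fold higher, with a log2 difference of 3.81 (SE 0.75, 95% interval 2.14 to 5.48, adjusted p = 0.00592). The lower mean is close to the level of 3 reads, so the size of this fold rests on very few reads. All 17 alternative fits called it, with adjusted p from 0.00129 to 0.0345.

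Ms4a6c was at 18.0, 48.2 and 34.4 with Jag1 and at 134, 298 and 316 with Jag1 and FICZ, 7.44-fold higher in the mean. The log2 difference was 2.87 (SE 0.69, 95% interval 1.33 to 4.40, adjusted p = 0.0166). The same-numbered samples of these groups share an experiment code, and within AA45, AA47 and AA48 Ms4a6c was 7.47-fold, 6.17-fold and 9.19-fold higher with FICZ. Ms4a4c was higher with FICZ in all 3 codes too, at 24.8 against 0.513, 83.2 against 3.76 and 77.1 against 7.54. The call of Ms4a6c was lost without replicate 1 of Jag1 (log2 difference 2.49, adjusted p = 0.0676) or without replicate 2 or 3 of Jag1 with FICZ (2.69 and 2.65, adjusted p = 0.0697 and 0.0622).

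The remaining members did not pass the test. Ms4a4a was at 19.2, 27.1 and 6.99 with Jag1 and at 18.7, 51.7 and 58.7 with FICZ added (log2 difference 1.26, SE 0.74, adjusted p = 0.299), and the groups overlapped through the AA45 sample at 18.7. With the flow cell as a block its difference was 1.92 and passed (adjusted p = 0.0347), in 1 of 17 alternative fits. Ms4a6b was at 13.6, 35.7 and 34.4 against 17.9, 59.96 and 58.8 with FICZ (0.62, SE 0.91, adjusted p = 0.719). It was higher with FICZ within each code, by 1.32-fold, 1.68-fold and 1.71-fold. Ms4a6d, at 118, 268 and 242 against 120.5, 189 and 227, had a log2 difference of -0.19 with a 95% interval from -1.38 to 1.00. Ms4a7 had -0.10 with an interval from -1.20 to 1.00. Both intervals end at 1.00, below the 2.87 fitted for Ms4a6c, and the difference between the genes was not tested. The median log2 difference over the 6 members was 0.94, against -0.0083 over all genes.

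**Figure D3:**
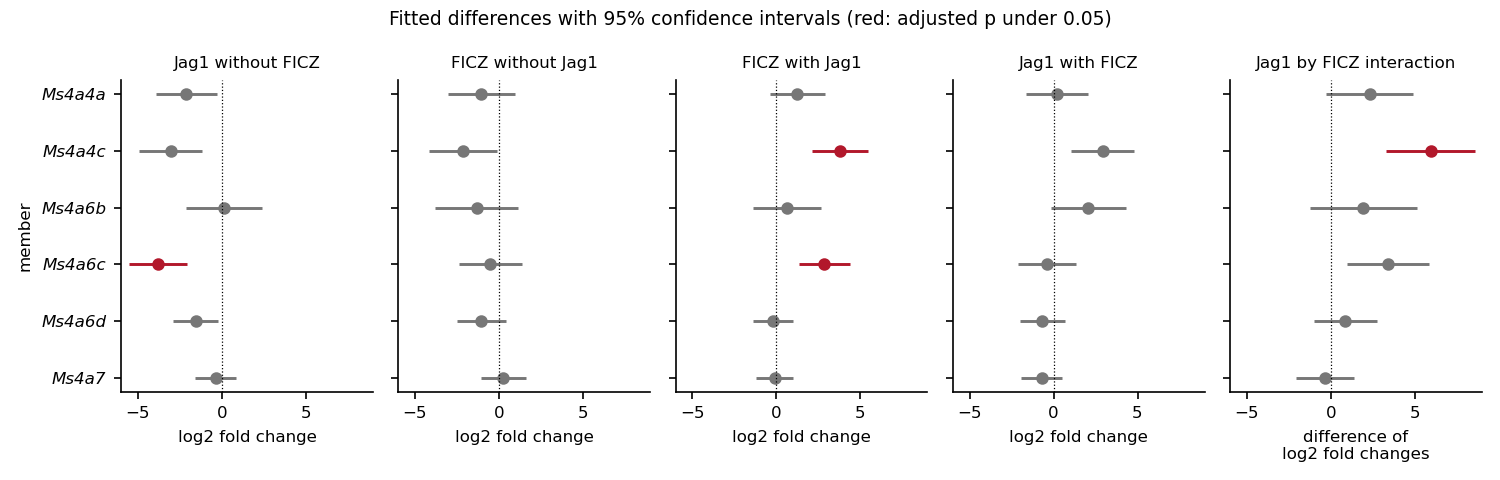
Fitted log2 differences of the 6 tested members in 5 comparisons, with 95% intervals, on the log2(value + 1) scale. Red marks an adjusted p below 0.05: Ms4a6c for Jag1 without FICZ (-3.79), Ms4a4c (3.81) and Ms4a6c (2.87) for FICZ with Jag1, and Ms4a4c for the interaction (5.95).

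FICZ without Jag1 gave no call among the 6 members, where 0.0229% of all genes tested were called. In the same fit 1 member, Ms4a4c, had an unadjusted p below 0.05, as had 2284 of all 13095 genes tested. Ms4a4c was at 4.68 and 8.45 with FICZ against 19.4 and 50.5 without, a mean 5.33-fold lower with no overlap (log2 difference -2.15, SE 0.92, adjusted p = 0.285). The replicates with FICZ, which differ in experiment code and flow cell, lay far apart for most members. Ms4a6c was at 106 in replicate 1 and 889.6 in replicate 2, Ms4a6d at 127 and 603, Ms4a4a at 12.6 and 85.1, and Ms4a6b at 1.53 and 36.2. Without replicate 2, the log2 differences of Ms4a4a, Ms4a6b, Ms4a6c and Ms4a6d were -2.38, -3.26, -2.05 and -2.17. That fit rests on 1 FICZ sample, assumed to vary like the other groups, and without replicate 1 all 4 differences were positive. Within code AA47 of the sample description, Ms4a6c was at 889.6 with FICZ and 392 without. Within code AA45 of the authors' table, which assigns the same control sample differently, it was at 106 with FICZ and 392 without. No direction can be given for FICZ alone in these 4 genes.

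The fitted effect of FICZ on Ms4a4c differed with the presence of Jag1. The rise with Jag1 was called. The lower values without Jag1 were not (adjusted p = 0.285, limma) and passed in 0 of 15 alternative fits, so a change of direction is not shown. The difference between the 2 effects was 5.95 on the log2 scale (SE 1.19, 95% interval 3.31 to 8.60, adjusted p = 0.0433). Ms4a4c was the 1 member called for this difference, where 1.39% of all genes tested were called. The call was held in 6 of 21 alternative fits, with adjusted p from 0.00582 to 0.329 and values from 4.77 to 6.62. Of the 10 libraries left out in turn, only the loss of replicate 2 of FICZ alone kept the call. For Ms4a6c the same difference was 3.39 (SE 1.09, adjusted p = 0.163) and for Ms4a4a 2.31 (SE 1.16, adjusted p = 0.298), and neither passed. A fit without replicate 2 of FICZ alone leaves 1 sample in that group. There the difference was 3.64 for Ms4a4a, 6.32 for Ms4a4c, 3.88 for Ms4a6b, 4.92 for Ms4a6c, 1.99 for Ms4a6d and 0.011 for Ms4a7. These comparisons share samples, so they are not independent of each other: Jag1, FICZ and both together are each set against the same TGFβ/IL-34 samples.

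With Jag1 and FICZ together against TGFβ/IL-34 alone, no member was called, where 4.48% of all genes tested were. In this comparison 1 member, Ms4a6d, had an unadjusted p below 0.05, as had 2335 of all 13095 genes tested. Ms4a6d was at 120.5, 189 and 227 with both and at 482 and 691 with neither, without overlap and 3.28-fold lower in the mean (log2 difference -1.73, SE 0.60, adjusted p = 0.150). Restricting the fit to both groups, or leaving out the AA45 libraries, gave an adjusted p of 0.00433 and 0.00961. Beside the 7.44-fold higher mean of its close copy Ms4a6c with FICZ added to Jag1, Ms4a6d was at 209 ± 80.3 and 179 ± 54.0 (SD, n = 3 each) without and with FICZ. Ms4a6c with both agents was at 134 to 316, below the 392 and 500.1 of TGFβ/IL-34 alone (log2 difference -0.92, SE 0.77, adjusted p = 0.631). Jag1 in the presence of FICZ called no member, where 2.02% of all genes were called. In that comparison 1 member, Ms4a4c, had an unadjusted p below 0.05, as had 3039 of all 13095 genes tested. Ms4a4c was 9.40-fold higher with Jag1 and FICZ than with FICZ alone (log2 difference 2.92, SE 0.84, adjusted p = 0.106). Without replicate 2 of FICZ alone, which leaves 1 sample in that group, the differences there were 3.28 for Ms4a4c and 4.02 for Ms4a6b.

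Omission of TGFβ and IL-34 was represented by 1 sample, which was assumed to vary like the other groups. Ms4a4a was highest there among all 11 samples, at 162 normalised counts against 19.2, 27.1 and 6.99 when TGFβ and IL-34 accompanied Jag1. The log2 difference was -3.30 with the cytokines (SE 1.04, adjusted p = 0.0551), and 8 of 13 alternative fits called it. The share of Ms4a4a in the summed members was 25.7% in the Jag1-only sample and 1.98% to 10.5% in the others. Ms4a4c was at 29.3 against 0.513, 3.76 and 7.54 (-2.94, SE 1.06, adjusted p = 0.0876). Ms4a6b was also highest in the Jag1-only sample, at 65.5, and Ms4a7 lowest, at 13.1. No member was called in this comparison, where 16.9% of all genes were. An unadjusted p below 0.05 was found for 2 members, Ms4a4a and Ms4a4c, and for 4052 of all 13095 genes tested. Ms4a4a, Ms4a4c and Ms4a6c were called when the experiment code of the sample description was added as a block (log2 differences -3.97, -4.05 and -2.79, adjusted p = 0.0307, 0.0131 and 0.0215).

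The members' levels went with experiment code AA45. The AA45 samples with FICZ alone and with Jag1 and FICZ were on a different flow cell from all other samples. Code and flow cell cannot be told apart in those groups. Of the 6 tested, Ms4a4c, Ms4a6b, Ms4a6c and Ms4a6d were lowest in the AA45 sample in 3 of 3 groups that hold one beside others, and Ms4a4a and Ms4a7 in 2 of 3. Over all genes tested, 9.64% were lowest there in 3 of 3 groups. The other samples exceeded the AA45 sample by 23.7-fold, 2.58-fold and 3.31-fold for Ms4a6b with FICZ, with Jag1 and with both, and by 8.37-fold, 2.29-fold and 2.28-fold for Ms4a6c. In a fit without the 4 AA45 libraries, chosen after seeing these values, 3 members were called lower with Jag1: Ms4a6c (-3.41, adjusted p = 0.000478), Ms4a4c (-2.35, 0.0487) and Ms4a6d (-1.18, 0.0165). FICZ with Jag1 still called Ms4a4c (3.67, 0.00604) and Ms4a6c (2.88, 0.000609). The interaction for Ms4a4c was 5.45, with 1 sample of FICZ alone left. How many of all genes this fit called was not counted. The part of the experiment in the members' levels was not tested beyond this. The sample description and the authors' table disagree on the code of replicate 1 of TGFβ/IL-34, which is AA47 in the former and AA45 in the latter.

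Sequence bears on how far the copies can be told apart. The coding sequences of Ms4a6b and Ms4a6c were 86.4% identical over aligned bases, Ms4a6b and Ms4a6d 81.8%, and Ms4a6c and Ms4a6d 79.6%, while Ms4a4c was 91.7% identical to its neighbour Ms4a4b. Ms4a4a was 68.8% identical to Ms4a4c, and Ms4a7 was 62.7% to 67.4% identical to the other members. Of all 31-base words in their transcripts, Ms4a4a shared none with another gene, Ms4a7 1.52%, Ms4a6b 8.22%, Ms4a6d 9.21% and Ms4a4c 16.0%. Of all words of Ms4a4c, 12.2% were shared with Ms4a4b, and the share of the words of Ms4a4b was not computed. How far this affects the values of Ms4a4c and Ms4a4b was not tested. Ms4a6c shared 77.9% of its words with other genes, but 74.6% were shared with BE692007, an annotated gene on the opposite strand that overlaps it. Whether the counting used strand is not given in the sources used here, so reads of Ms4a6c and BE692007 cannot be told apart where it did not.

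The sequences before the start sites of Ms4a4c, Ms4a4b, Ms4a6c and Ms4a6b are shown because these are the pairs of neighbouring copies, and because Ms4a4c, Ms4a4b and Ms4a6c were higher with FICZ in the presence of Jag1 and Ms4a6b was not called. RefSeq entries (table of build GRCm38.p6) were found for 6 of 7 members, Ms4a6d being the exception, and were placed on GRCm39 by an exact match. Each stretch is the part of the 250 bases before the start that lies outside annotated exons, on the plus strand of chromosome 19. Capitals mark GCGTG, the core of the Ahr element, TGGGAA, the core of the RBPJ element used by Notch, read here on the minus strand as its complement, and GAGGAA, the core of the element of the myeloid factor PU.1.
Ms4a4c, chr19:11384775-11385016: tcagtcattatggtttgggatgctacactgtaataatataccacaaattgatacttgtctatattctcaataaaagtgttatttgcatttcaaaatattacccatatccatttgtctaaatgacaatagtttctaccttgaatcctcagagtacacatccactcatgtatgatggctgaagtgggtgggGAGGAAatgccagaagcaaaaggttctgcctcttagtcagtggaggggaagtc
Ms4a4b, chr19:11420672-11420916: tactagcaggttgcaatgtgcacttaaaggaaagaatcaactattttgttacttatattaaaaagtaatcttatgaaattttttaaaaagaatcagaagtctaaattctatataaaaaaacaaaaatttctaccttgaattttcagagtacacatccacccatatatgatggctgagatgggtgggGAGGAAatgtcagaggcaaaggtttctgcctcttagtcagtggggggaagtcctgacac
Ms4a6c, chr19:11446482-11446717: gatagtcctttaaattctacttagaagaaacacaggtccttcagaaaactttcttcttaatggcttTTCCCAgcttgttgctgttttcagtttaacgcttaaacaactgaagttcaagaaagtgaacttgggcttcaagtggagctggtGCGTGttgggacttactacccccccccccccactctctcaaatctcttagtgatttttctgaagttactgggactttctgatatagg
Ms4a6b, chr19:11495673-11495816: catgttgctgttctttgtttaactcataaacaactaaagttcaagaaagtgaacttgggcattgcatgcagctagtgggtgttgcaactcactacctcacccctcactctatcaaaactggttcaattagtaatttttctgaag

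In these windows Ms4a6c held GCGTG at -101 to -97 and the complement of TGGGAA at -184 to -179, counted from the RefSeq start with -1 as the base before it. Ms4a4c and Ms4a4b both held GAGGAA, at -61 to -56 and at -64 to -59. Searched on both strands of the 250 bases before the start, the promoters of Ms4a4a, Ms4a6b, Ms4a7 and Ms4a8a held none of the 3 motifs, which do not overlap each other in any member. Of 32851 mouse promoters, 28.2% held GCGTG, 21.6% TGGGAA and 23.3% GAGGAA in a window of that length, so each match is common and is given as a description. Over the 250 bases, 133 aligned columns of the Ms4a4c and Ms4a4b windows were 88.0% identical, and 180 columns of those of Ms4a6b and Ms4a6c were 82.2% identical. These were the only pairs among 45 pairs of family promoters that aligned over 100 or more columns. The windows of Ms4a4c, Ms4a4b and Ms4a6b lay inside the annotated gene, since other transcripts start further upstream.

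Other genes of the cluster moved in the same comparisons. Of the 5 other family genes tested, 2 were called lower with Jag1 without FICZ and 3 were called higher with FICZ in the presence of Jag1. These comparisons called 6.6% and 17.7% of all genes tested. Ms4a2, the IgE receptor β chain, was at 14.7 and 35.3 in TGFβ/IL-34 alone, 0, 2.48 and 0.590 with Jag1, 58.5, 59.6 and 58.6 with Jag1 and FICZ, and 22.5 and 60.3 with FICZ alone. It was at or below the level of 3 reads with Jag1 and above it in every other group. The fitted differences were -3.76 (adjusted p = 0.0102) for Jag1 and 5.08 (adjusted p = 0.000435) for FICZ with Jag1. Ms4a3, a gene of granulocyte-monocyte progenitors, was at 1.19, 25.7 and 20.4 with Jag1 and at 715, 949 and 657 with FICZ added, 49.1-fold higher in the mean (6.15, SE 0.77, adjusted p = 0.000484). It was at 77.6 and 93.6 in TGFβ/IL-34 alone and at 421 and 484 with FICZ alone (2.39, SE 0.94, adjusted p = 0.285).

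Ms4a4b, the close copy of Ms4a4c and known from T cells, had its lowest group mean with Jag1 and its next lowest with FICZ alone, as Ms4a4c did. It was at 48.6 and 16.5 in TGFβ/IL-34 alone, 0 and 8.92 with FICZ, 0, 0 and 1.04 with Jag1, 11.8, 18.7 and 18.2 with both, and 27.9 in the Jag1-only sample. The fitted differences were -4.54 for Jag1 without FICZ (adjusted p = 0.0210), 3.74 for FICZ with Jag1 (adjusted p = 0.0138) and -4.51 for TGFβ and IL-34 with Jag1 (adjusted p = 0.0316). With Jag1, Ms4a2 and Ms4a4b were below the level of 3 reads, so these differences depend on the pseudocount and no fold is given. For Ms4a2 and Ms4a4b the Jag1 call was lost without replicate 2 of TGFβ/IL-34 (-3.15 and -5.29, adjusted p = 0.161 and 0.0910). For Ms4a4b it was also lost without replicate 1 of TGFβ/IL-34 (-3.78, 0.219) or replicate 1 or 2 of Jag1 (-4.36 in both, 0.0636 and 0.0550). The rise of Ms4a4b with FICZ was lost without replicate 2 of Jag1 with FICZ (3.63, 0.0590), and its difference for TGFβ and IL-34 without replicate 1 or 2 of Jag1 (-4.34 in both, 0.0600 and 0.0661). Ms4a1 and Ms4a12 stayed at or below 18.7 in every sample and were not called.

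**Figure D4:**
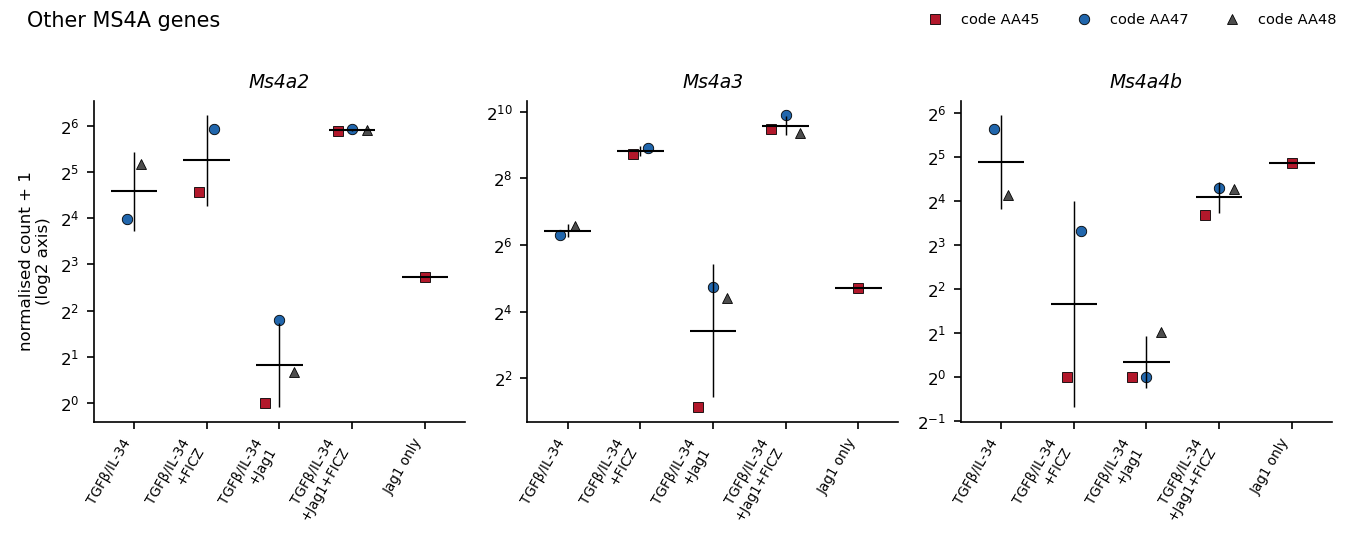
Normalised counts plus 1 (log2 axis) of Ms4a2, Ms4a3 and Ms4a4b in each culture group, drawn as for the members. The group means of all 3 genes were lowest with TGFβ/IL-34 and Jag1 without FICZ, and Ms4a3 was highest, at 657 to 949, with Jag1 and FICZ.

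Markers of other cell types moved with the same comparisons. The summed level of 6 classical monocyte markers was 5869 to 11921 in TGFβ/IL-34 alone, 605 to 1175 with Jag1 and 5528 to 6958 with Jag1 and FICZ, with 5 of 5 tested called lower with Jag1 and 4 of 5 higher with FICZ added. That of 8 granulocyte progenitor and neutrophil markers was 299 to 849, 156 to 313 and 6646 to 10910. For 6 mast cell and basophil markers it was 6182 to 6428, 1836 to 2982 and 10031 to 13093. With FICZ alone the sums of the 3 lists were 8700 to 11174, 2508 to 4147 and 8920 to 11998. Of the granulocyte markers tested, 1 of 7 was called lower with Jag1 and 5 of 7 higher with FICZ added. For the mast cell list these were 2 of 5 and 4 of 5. The 2 comparisons called 6.6% and 17.7% of all genes tested. Fcer1a, a defining mast cell and basophil marker, was at 0 in all samples. Of 12 macrophage markers, 11 were tested. With Jag1 without FICZ 5 were called higher and 3 lower, and with FICZ added to Jag1 6 were called lower and 1 higher. The gene with the highest mean of each list was Lyz2 (monocyte), Elane (granulocyte progenitor), Gata2 (mast cell and basophil), Csf1r (macrophage), Mfge8 (mLC) and Col1a1 (stroma). Lyz2 was at 4315 and 8381 normalised counts in TGFβ/IL-34 alone, at 327 to 930 with Jag1 and at 1611 to 2589 with both agents. B cell markers summed to at most 57.6 and T and NK cell markers to at most 66.2. The mLC label held for the TGFβ/IL-34 samples with Jag1, where Cd207, which encodes Langerin, was at 1366 to 1784. It was at 154 and 157 in TGFβ/IL-34 alone and at 6.21 to 132 with FICZ, with or without Jag1, and Epcam was at 3952 to 14377 in the 10 samples with TGFβ and at 657 in the Jag1-only sample. The part of these cells in the members' values was not tested. The summed level of 5 Ahr targets was 9579 to 9832 in TGFβ/IL-34 alone, without FICZ, and 12408 to 18404 with FICZ alone. It was 2973 to 4162 with Jag1 and 10424 to 11571 with both agents. Of these targets 5 of 5 were called lower with Jag1 and 5 of 5 higher with FICZ added to Jag1. How this bears on the members was not tested.

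Genes of the receptors that MS4A proteins accompany were measured too, on a list of 5 (Clec7a, Trem2, Tyrobp, Fcer1g and Syk) of which all were tested. None was called for Jag1 without FICZ or for FICZ without Jag1, and 1 was called lower for FICZ with Jag1. Clec7a, which encodes Dectin-1, was at 903, 562 and 454 with Jag1 and at 203, 159 and 279 with FICZ added (log2 difference -1.55, SE 0.29, adjusted p = 0.00483, called in 17 of 17 alternative fits). It fell where Ms4a4c and Ms4a6c rose, and where Ms4a4a was higher without a call (log2 difference 1.26). For Jag1 without FICZ Ms4a4a was lower without a call (-2.10), and Clec7a was not called. Against the Jag1-only sample, where it was at 1596, Clec7a was also called lower with TGFβ, IL-34 and Jag1 (-1.38, adjusted p = 0.0476, called in 5 of 13 alternative fits), the direction of the difference that Ms4a4a, its known partner, showed there without a call. That call was lost without replicate 2 (-1.32, 0.103) or 3 (-1.16, 0.106) of Jag1. Clec7a was also called lower with both agents than with neither (-1.80, adjusted p = 0.0164), a call lost without replicate 1 (-1.83, adjusted p = 0.157) or replicate 2 (-1.76, 0.127) of TGFβ/IL-34 and without replicate 1 (-1.78, 0.0643) or 2 (-1.60, 0.0694) of both agents. Trem2 was at 105, 28.7 and 91.3 with Jag1 and FICZ and at 2020 and 267 with FICZ alone (-3.47, adjusted p = 0.0487). That call was lost in 9 of 16 alternative fits, among them the fit without replicate 1 of FICZ alone, the sample at 2020 (-2.02, adjusted p = 0.168).

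Over the 11 samples the members did not form 1 pattern. Pearson correlations of log2 values were 0.67 between Ms4a4c and Ms4a6c, 0.66 between Ms4a6c and Ms4a6d and 0.65 between Ms4a4a and Ms4a6c, but 0.23 between the close copies Ms4a6b and Ms4a6c. Ms4a7 had 0.57 with Ms4a6d and 0.45 with Ms4a6c, and -0.08 with Ms4a6b and -0.05 with Ms4a4a. These points share culture groups and experiment codes and are given as a description. Among all genes tested, the genes most like Ms4a6c were Man1c1 (r = 0.96), Vezf1 (0.96) and Ptchd1 (0.96), and those most like Ms4a4c were Azi2 (0.92), Ercc6l (0.92) and Kbtbd6 (0.91). For Ms4a6b they were Caap1, Elf1 and B430305J03Rik (each 0.95), for Ms4a6d Adar (0.93), Slfn1 (0.92) and Cmtm3 (0.91), for Ms4a4a Zfp189 (0.93), Phf20 (0.93) and Siglecg (0.92), and for Ms4a7 Vmn1r207 (0.88), Ngly1 (0.87) and Gm20498 (0.86).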

How the data were processed

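Bulk RNA sequencing of sorted EpCAM+ cells gave 11 samples in 5 groups, assigned from the labels. The authors quantified reads with salmon against Ensembl GRCm39 transcripts, summed them to genes with tximport and deposited DESeq2 normalised counts, a signal divided by size factors; versions and strand use are not given in the sources used here. Low values were not all whole reads (80.9% to 98.8%), so no count model was run. Totals were 21.3 to 27.8 M per sample, an estimated 20.6 to 24.2 M reads. Differences were fitted with limma 3.58.1 in R 4.3.3 (trend, two-sided) on log2(value + 1), for genes at 10 or more in at least 2 samples. One mean per group was fitted over all 11 samples with 6 residual degrees of freedom, and Benjamini-Hochberg adjustment ran over 13095 genes at a threshold of 0.05. On simulated data the fit recovered 11 to 33 of 100 genes changed 2-fold and 52 to 75 of 100 changed 4-fold. Unchanged genes made up 4.42% to 12.7% of its calls, the highest share being for Jag1 without FICZ. A missing call therefore does not show that a gene was unchanged. Gene positions came from GENCODE vM39 (21676 of 21860 genes matched) and promoters from RefSeq. A second deposited table, of experiment codes, served for the batch checks.

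The members, lists, motifs and tests were chosen with earlier results of these data known. The rule for named genes was all members, the other family genes in the table, up to 4 genes of each list by mean level, and the 3 genes most correlated with each member. Trem2 and Fcer1a fall outside it and were named after their values were seen. Lists of Notch targets and interferon-stimulated genes were drawn up too and are not described here. Same-numbered samples with Jag1 and with Jag1 and FICZ share an experiment code. Their deviations from the group means correlated weakly (r = 0.15, 0.12 and 0.17), and differently numbered samples were not compared. Same-numbered samples with FICZ alone share the codes of both groups as well (r = 0.06 to 0.20). The main fit did not use this pairing, which entered only as a block among the alternatives. Alternatives covered normalization, pseudocount, filter, weights, blocks, the groups fitted and each replicate left out.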

Additional observations from a re-analysis of the deposited data

Results flagged for a closer look

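The effect of FICZ on Ms4a4c differed between cultures with and without Jag1, with a fitted difference between the 2 effects of 5.95 on the log2 scale (SE 1.19, adjusted p = 0.0433, limma interaction). Ms4a4c was lower with FICZ in 2 of 2 samples without Jag1 and higher in 3 of 3 samples with it. How many of all genes tested lay apart in this way was not counted. The lower values without Jag1 were not called (adjusted p = 0.285, limma), so no change of direction is shown for Ms4a4c. Its neighbour Ms4a4b differed in the same direction by 6.96 (SE 1.37, adjusted p = 0.0431), where its values with Jag1 alone were 0, 0 and 1.04. The call was held in 6 of 21 alternative fits for Ms4a4c and in 4 of 21 for Ms4a4b, with adjusted p of up to 0.329 and 0.290. Without the 4 libraries of experiment code AA45 the differences were 5.45 (adjusted p = 0.0628) and 5.34 (adjusted p = 0.112). Part of the reads of either gene may come from the other, since 12.2% of the 31-base words of Ms4a4c occur in Ms4a4b, and this was not tested.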

How the results depend on the processing

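Of 887 refitted values of single genes, 738 kept their direction and their side of the threshold, 45 passed it newly, 68 lost it and 36 changed sign. No call changed sign. The called members numbered as follows. For Jag1 without FICZ (1) there were 4 with array weights, 3 with the replicate block, with the experiment code of the authors' table as a block and without the AA45 libraries, 2 with the code of the description or the flow cell as a block or with only both groups fitted, and 0 to 2 with a replicate left out. For FICZ without Jag1 (0) leaving out a replicate gave 0 to 4. For both agents together (0) there was 1 with array weights, the replicate block, the authors' code, only both groups or without AA45. For FICZ with Jag1 (2) there were 3 when flow cell was the block and 1 to 2 with a replicate left out. For Jag1 with FICZ (0) there was 1 without AA45 and 0 to 2 with a replicate left out. For the interaction (1) there were 0 with quantile normalization, a pseudocount of 0.5, no filter, array weights, the code of the description or without AA45, 2 with the authors' code, and 0 to 5 with a replicate left out. For TGFβ and IL-34 with Jag1 (0) there was 1 with quantile normalization, a pseudocount of 4, array weights, the flow cell or only both groups, and 3 with the replicate block, the code of the description or the authors' code. How many of all genes each refit called was not counted, and the causes of these changes were not tested.

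Signs changed in differences that were not called. Without the AA45 libraries, Ms4a7 was 0.036 for Jag1 without FICZ. For FICZ without Jag1, Ms4a4a was 0.28, Ms4a6b 0.62, Ms4a6c 1.00 and Ms4a6d 0.062. Ms4a4a was -0.62 for Jag1 with FICZ and Ms4a6d -0.36 for the interaction. With blocks, Ms4a6b was -0.10 (replicate block) and -0.33 (authors' code) for Jag1 without FICZ, Ms4a6c 0.24 (description) and 0.47 (flow cell) for FICZ without Jag1, and Ms4a6d 0.28 (flow cell) for FICZ with Jag1. Ms4a4a for Jag1 with FICZ was -0.13 with the flow cell or quantile normalization. With a replicate left out, Jag1 without FICZ ranged from -0.23 to 0.57 for Ms4a6b and -0.74 to 0.038 for Ms4a7. FICZ without Jag1 ranged from -2.38 to 0.28 for Ms4a4a, -3.26 to 0.62 for Ms4a6b, -2.05 to 1.00 for Ms4a6c, -2.17 to 0.062 for Ms4a6d and -0.13 to 0.64 for Ms4a7. FICZ with Jag1 ranged from -0.56 to 0.071 for Ms4a6d and -0.48 to 0.20 for Ms4a7. Jag1 with FICZ ranged from -1.12 to 1.54 for Ms4a4a, -1.93 to 1.13 for Ms4a6c and -1.80 to 0.44 for Ms4a6d. The interaction ranged from -0.25 to 1.99 for Ms4a6d and -0.74 to 0.035 for Ms4a7. Replicate numbers name a shared experiment in the 3 groups with TGFβ/IL-34 and Jag1, FICZ or both, where the replicate block changed no call of FICZ with Jag1 or Jag1 with FICZ. They do not in TGFβ/IL-34 alone. Groups of 1 to 3 samples and members near the level of 3 reads limit what these libraries can show.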

Other observations

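Tmem176a and Tmem176b, distant relatives of the MS4A family on chromosome 6, were at far higher levels in the Jag1-only sample than in any sample with TGFβ and IL-34. Tmem176a was at 10626 normalised counts in the Jag1-only sample and at 894 to 3440 in the other 10, and Tmem176b at 12019 against 1252 to 4469. Against the 3 samples with TGFβ, IL-34 and Jag1, the log2 differences were -3.14 (SE 0.41, adjusted p = 0.00107, limma) and -2.93 (SE 0.36, adjusted p = 0.000902), and both were called in 13 of 13 alternative fits. Lower values with the cytokines were seen in 3 of 3 samples for both genes. The test rests on 1 sample without the cytokines, assumed to vary like the other groups. The 2 genes overlap on opposite strands, so their reads cannot be told apart where counting did not use strand.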
